A study of Mus musculus with 6 samples.

Results

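The histone cluster genes are the mouse genes for the histones that package newly copied DNA. They were taken by name: every gene of the deposited feature list whose symbol starts with Hist1h, Hist2h, Hist3h or Hist4h. That gave 67 of 32285 genes: 6 for the linker histone H1, 18 for H2A, 18 for H2B, 12 for H3 and 13 for H4. All 67 identifiers were found in GENCODE vM39 as protein-coding genes that carry an H1, H2, H3 or H4 name, so the old symbols and the current annotation name the same kind of gene.

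The study measured single-cell RNA in immune cells of B16-F10 mouse melanomas. The tumors grew in C57BL/6 female mice of 6 to 10 weeks, and CD45-positive cells were taken with magnetic beads. The paper states that about 23000 cells were loaded and does not say whether per library. Every mouse received an antibody against the checkpoint receptor PD-1 (αPD-1, 150 µg, 3 times a week from day 7). In one arm the mice also received corin, an inhibitor of the CoREST complex that blocks its LSD1 demethylase and its HDAC deacetylases (200 µg daily, intraperitoneally, from day 6), and in the other arm 200 µl of 5% DMSO as vehicle. The arms are called αPD-1 + corin and αPD-1, with 3 samples in each. An arm held 10 mice, and which of them supplied each sample is not stated, so p-values measure the spread between samples, which may be technical.

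The αPD-1 samples held 57105880, 52281422 and 63748460 UMIs (unique RNA molecules counted) and the αPD-1 + corin samples 78092774, 84276739 and 80777021, in replicate order, which is the order of all values below. These came from 6788, 6433, 7000, 13228, 9813 and 9637 barcodes over the 6 samples. Between any pair of libraries 10 to 32 barcodes were shared. After removal of 2002 predicted doublets and of cells with under 600 or over 4000 genes or over 10% mitochondrial UMIs, 28865 of 52899 barcodes remained, with 127355217 UMIs. Of 334275 histone cluster UMIs in all barcodes, 82201 lay in the kept cells. The upper limit matters for these genes: 8248 barcodes had over 4000 genes, and 5490 of them were cycling by the rule given below.

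In the nucleosome, pairs of H2A, H2B, H3 and H4 form the core around which DNA winds, and H1 binds the DNA between cores. Cells make most of these proteins during S phase from clustered genes that share the coactivator NPAT, and most of the mRNAs end in a short stem loop bound by SLBP in place of a poly(A) tail. Some of the genes also give polyadenylated RNA in cells that have stopped dividing, and libraries primed on poly(A), as here, favor such RNA. How far capture differed between the genes was not tested, so their levels are levels of captured RNA.

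Cells were called cycling where Mki67 and Top2a together had at least 2 UMIs, and all remaining cells are called other cells. UMIs were summed per sample in each lineage and state, and levels are given in CPM, the UMIs of a gene scaled to the same total in every sum. The lineages with enough cycling cells were monocytes and macrophages (10695 cells, 825 cycling), T cells (5853, 1125 cycling), dendritic cells (2910, 293 cycling) and melanoma-like cells (1881, 524 cycling). The names came from marker genes of the clusters. Cd3e stood at 342 to 629 CPM in T cells, Csf1r at 310.2 to 370.1 in monocytes and macrophages and Flt3 at 81.1 to 128 in dendritic cells. Ptprc, the gene for CD45, stood at 1253 to 1498 CPM in T cells, 407 to 737 in monocytes and macrophages and 801 to 1008 in dendritic cells. The dendritic cells also held Csf1r at 127.2 to 198.8 CPM and Cd3e at 25.0 to 109.8, and Flt3 was at 1.62 to 6.48 in monocytes and macrophages. The melanoma-like cells go against the CD45 label, with Ptprc at 7.86 to 55.9 CPM and the pigment gene Mlana at 1388 to 1871 CPM, against 5.74 to 13.6 CPM in T cells. The class called T cells may include NK cells: its clusters 3 and 7, of 2157 and 1718 cells, carried 3 of the 5 NK markers beside all 7 T cell markers, and with cells of over 4000 genes kept an NK cluster of 2990 cells separated. Which of its results NK cells carry was not tested beyond an alternative limited to T cells with a Cd3 UMI, given with the corin results.

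Many cells lay near the cycling threshold. In T cells 657 cells had 1 UMI and 266 had 2, and in monocytes and macrophages 726 had 1 and 250 had 2. Among B cells 1.94% passed the threshold and among neutrophils, which are not dividing cells as a rule, 8.22% did, at median depths of 2354.5 to 3102.5 UMIs in other neutrophils and 1196 to 1934 in other B cells, beside 1765.5 to 2684 in other T cells. Of the 161 neutrophils past it 84 had 4 or more UMIs, and the cycling neutrophil sums of the αPD-1 + corin arm held 1354 to 1948 CPM of the histone cluster genes at median depths of 7324.5 to 7613.5 UMIs. Whether free RNA, doublets or dividing cells gave these counts was not tested. Sums of under 10 cells were dropped, which left no cycling neutrophil sum in the αPD-1 arm and no cycling B cell sum in the αPD-1 + corin arm.

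Summed over all 67 genes, the histone cluster level was higher in cycling cells than in other cells of every sample in these 4 lineages. In cycling T cells it was 2144, 2797 and 2303 CPM with αPD-1 alone and 3213, 2742 and 2444 with αPD-1 + corin. The other T cells held 365, 345 and 328 CPM with αPD-1 alone and 451, 347 and 406 with αPD-1 + corin. The ratio within a sample was 5.87 to 8.11 in T cells, 4.03 to 9.60 in monocytes and macrophages, 4.39 to 9.30 in dendritic cells and 1.81 to 5.78 in melanoma-like cells, with the lowest ratio in αPD-1 replicate 2, which had 24 cycling melanoma-like cells. Other cells of further types held 315 to 486 CPM in B cells, 151 to 203 CPM in fibroblasts and 189 to 718 CPM in neutrophils. The αPD-1 neutrophil sums came from 20, 13 and 12 cells, and without αPD-1 replicate 2 the highest was 379 CPM.

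**Figure D1:**
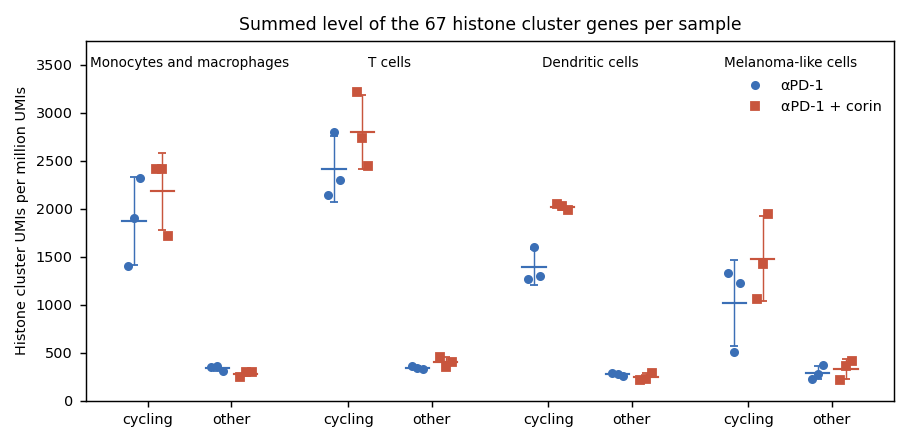
Summed CPM of the 67 histone cluster genes in each sample (points), by lineage and cell state, with the mean (line) and SD (bars) of each arm of 3 samples. Every cycling point lies above every other-cell point of its lineage, and the dendritic cycling points of the αPD-1 + corin arm, 1983 to 2053 CPM, lie above those of the αPD-1 arm, 1271 to 1605 CPM.

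A few genes made up most of this level. In cycling monocytes and macrophages 5 genes held 60.8% of the histone cluster UMIs and 12 held 85.7%, while 7 genes had no UMI and 50 reached a mean of 1 CPM. The H1 genes gave 44.4% of the UMIs there, H2A 26.6%, H4 15.03%, H2B 7.24% and H3 6.77%. Cycling T cells divided the level in much the same way: 41.1% H1, 29.7% H2A, 15.03% H4, 7.22% H2B and 6.92% H3. Among other T cells the H2A share was lower, at 16.4%, and the H2B and H4 shares were higher, at 12.7% and 20.0%. Per kilobase of coding sequence the order in cycling T cells was Hist1h4d (1059 CPM per kb), Hist1h2ae (809), Hist1h1b (662), Hist1h1e (519) and Hist1h2ab (442). Not scaled to length, the order was Hist1h1b, Hist1h1e, Hist1h4d, Hist1h2ae and Hist1h2ab. The testis genes Hist1h2ba and Hist1h2aa, whose proteins serve in sperm development, had no UMI in the kept cells.

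Which histone genes rise in dividing cells was asked by comparing cycling with other cells of the same samples. In monocytes and macrophages 26 of the 67 genes had enough counts to be tested, and 24 were higher in cycling cells at an adjusted p under 0.05 (edgeR quasi-likelihood test, Benjamini-Hochberg over all genes), against 27.4% of all genes tested in either direction. In T cells 23 of 26 were higher (40.4% of all genes), in dendritic cells 13 of 14 (18.2%) and in melanoma-like cells 8 of 9, with 1 lower (9.93%). The median log2 fold of the tested histone cluster genes was 2.72, 2.35, 3.14 and 2.16 in these lineages, beside -0.01, -0.03, -0.01 and -0.03 over all genes tested. All 8 genes tested in the 4 lineages were higher in each of them: Hist1h1c, Hist1h1d, Hist1h1e, Hist1h2ab, Hist1h2ae, Hist2h2ac, Hist1h3e and Hist1h4d. A filter on low counts that keeps a gene through its cycling sums favors such genes, and 39 of the 67 were tested in none of the lineages. With no filter the counts were 36 in T cells, 24 in dendritic cells and 18 in melanoma-like cells. When cells with over 4000 genes were kept 31 melanoma-like calls were made. The share of all genes called in these settings is not given here.

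Among the linker genes, Hist1h1b (H1.5) rose most in the 3 lineages that tested it. In melanoma-like cells, which did not, Hist1h1d had the highest linker fold, 2.90 ± 0.19. In cycling T cells Hist1h1b stood at 399, 475 and 367 CPM with αPD-1 alone and 582, 454 and 379.6 with αPD-1 + corin. Its level in other T cells was 28.7, 18.1 and 12.1 CPM with αPD-1 alone and 37.3, 7.87 and 29.7 with αPD-1 + corin. Every cycling sum lay above every other-cell sum, and the log2 fold was 4.27 ± 0.15 (SE) in T cells, 4.46 ± 0.23 in monocytes and macrophages and 4.73 ± 0.18 in dendritic cells, higher in 6 of 6 samples each time. Hist1h1e (H1.4), second among the linker genes per kb of coding sequence in cycling T cells, moved less: 278, 379.8 and 312 CPM with αPD-1 alone and 383, 381 and 311 with αPD-1 + corin in cycling T cells, and 53.9 to 75.8 CPM in other T cells. Its log2 fold was 2.38 ± 0.09 in T cells and 2.72 ± 0.13 in monocytes and macrophages. Hist1h1c (H1.2) moved least of the tested linker genes and had the highest linker level per kb in other monocytes and macrophages (80.7 CPM per kb), at 63.4, 52.5 and 40.6 CPM with αPD-1 alone and 52.7, 68.7 and 30.2 with αPD-1 + corin. In cycling cells it reached 78.6 to 152 CPM, a log2 fold of 1.25 ± 0.12. Hist1h1d (H1.3) and Hist1h1a (H1.1) rose by a log2 fold of 2.93 ± 0.13 and 2.30 ± 0.14 in T cells, and Hist1h1a by 3.63 ± 0.20 in monocytes and macrophages. The testis linker gene Hist1h1t was not tested in these comparisons and stood at 0 CPM in all 6 cycling T cell sums.

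The H2A genes held the steepest rise. Hist1h2ab stood at 58.3, 84.4 and 114 CPM with αPD-1 alone and 164, 136 and 119 with αPD-1 + corin in cycling monocytes and macrophages. In other cells of this lineage it stood at 3.04, 3.34 and 2.47 CPM with αPD-1 alone and 3.12, 1.98 and 4.18 with αPD-1 + corin. The lowest cycling sum lay far above the highest other-cell sum, with a log2 fold of 5.23 ± 0.18, and folds of 4.89 ± 0.16 in T cells, 5.41 ± 0.22 in dendritic cells and 3.22 ± 0.22 in melanoma-like cells. Hist1h2ae, the highest H2A gene per kb, stood at 133, 189.8 and 337 CPM with αPD-1 alone and 258, 248 and 174 with αPD-1 + corin in cycling monocytes and macrophages and at 6.92 to 15.4 CPM in the other cells, a log2 fold of 4.24 ± 0.19. Hist1h2ak rose by 3.67 ± 0.24 from a lower level, 2.54 to 6.68 CPM in other cells. Hist2h2ac, on chromosome 3, rose by 3.11 ± 0.15, to 53.9 to 135 CPM. Hist1h2ac moved least of the tested H2A genes there, by 1.34 ± 0.23, and was already at 4.43 to 14.96 CPM in other cells. All 6 H2A genes tested in monocytes and macrophages were higher, as were 6 of 6 in T cells and 4 of 4 in dendritic cells, and 12 of the 18 were tested in neither of the first 2 lineages.

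The H2B genes tested parted into genes that rose and a gene that did not. Hist1h2bj stood at 40.4, 53.2 and 37.96 CPM with αPD-1 alone and 56.4, 45.5 and 49.3 with αPD-1 + corin in cycling T cells. Other T cells held 4.49, 3.85 and 2.50 CPM with αPD-1 alone and 12.4, 5.51 and 7.11 with αPD-1 + corin. All 6 samples were higher in cycling cells, with a log2 fold of 3.14 ± 0.18. Hist1h2bc, in contrast, stood at 27.7, 21.1 and 24.04 CPM with αPD-1 alone and 19.98, 18.6 and 23.7 with αPD-1 + corin in cycling monocytes and macrophages. In the other cells of the lineage it stood at 29.7, 20.3 and 18.4 CPM with αPD-1 alone and 22.8, 24.04 and 18.4 with αPD-1 + corin. These ranges overlap, the log2 fold was -0.06 ± 0.15 (adjusted p = 0.810), and in T cells it was 0.26 ± 0.22 (adjusted p = 0.366). In melanoma-like cells Hist1h2bc was the tested gene that was lower in cycling cells, with a log2 fold of -0.65 ± 0.20 (adjusted p = 0.0359, lower in 6 of 6 samples). Of the H2B genes tested, 5 of 6 were higher in monocytes and macrophages and 6 of 7 in T cells. The largest H2B fold in monocytes and macrophages was that of Hist1h2bm, 4.22 ± 0.36.

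Of the H3 genes, Hist1h3e had the highest level per kb in cycling T cells and in cycling monocytes and macrophages (219.8 and 159 CPM per kb). It stood at 90.6, 98.4 and 68.3 CPM with αPD-1 alone and 109, 78.1 and 93.5 with αPD-1 + corin in cycling T cells. The level in other T cells was 23.1, 19.2 and 15.3 CPM with αPD-1 alone and 17.8, 10.2 and 18.1 with αPD-1 + corin. All 6 samples were higher in cycling cells, and the log2 fold was 2.30 ± 0.12, beside 2.06 ± 0.18 in monocytes and macrophages, 2.25 ± 0.24 in dendritic cells and 2.04 ± 0.22 in melanoma-like cells. Hist1h3c rose more, by 3.98 ± 0.25 in T cells and 4.07 ± 0.31 in monocytes and macrophages, from 0.499 to 1.37 CPM in other cells of the latter. All 4 H3 genes tested in T cells and all 5 tested in monocytes and macrophages were higher in cycling cells, the smallest fold being that of Hist1h3d, 0.94 ± 0.28.

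The H4 genes encode one and the same protein, yet their levels differed widely. Hist1h4d stood at 203, 292 and 276 CPM with αPD-1 alone and 462, 373 and 358 with αPD-1 + corin in cycling T cells. Against this, other T cells held 21.4, 23.7 and 30.7 CPM with αPD-1 alone and 42.6, 51.1 and 46.3 with αPD-1 + corin. Cycling sums lay above other-cell sums throughout, with log2 folds of 3.17 ± 0.10 in T cells, 3.07 ± 0.13 in monocytes and macrophages, 3.16 ± 0.12 in dendritic cells and 2.16 ± 0.17 in melanoma-like cells. Hist1h4i rose by 1.58 ± 0.18 and 1.01 ± 0.21 in T cells and in monocytes and macrophages. Hist4h4, alone on chromosome 6, stood at 11.7, 14.6 and 6.01 CPM with αPD-1 alone and 5.99, 7.16 and 13.3 with αPD-1 + corin in cycling monocytes and macrophages. In the other cells it stood at 11.9, 12.02 and 8.77 CPM with αPD-1 alone and 6.18, 7.08 and 14.6 with αPD-1 + corin. The ranges overlap, and its log2 folds were -0.06 ± 0.21, -0.14 ± 0.21 and 0.45 ± 0.40 in the 3 lineages that tested it, none past the threshold. Hist2h4 rose by 0.96 ± 0.26 in monocytes and macrophages, and in T cells its fold of 0.21 ± 0.19 did not pass (adjusted p = 0.403). Of the H4 genes tested, 2 of 4 were higher in T cells, 3 of 4 in monocytes and macrophages, 1 of 2 in dendritic cells and 1 of 1 in melanoma-like cells.

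**Figure D2:**
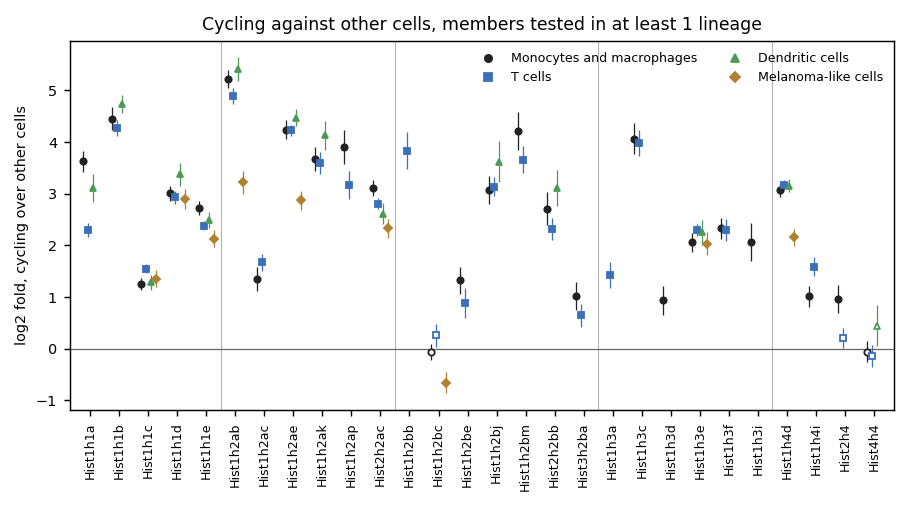
Log2 fold of cycling over other cells (points, with SE bars, 6 samples) for each histone cluster gene tested in at least 1 lineage, filled where the adjusted p was under 0.05. Hist1h2ab has the highest fold in each lineage, 3.22 to 5.41, and Hist1h2bc and Hist4h4 lie between -0.65 and 0.45.

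The histone genes outside the clusters, most of which give polyadenylated mRNA, moved less by their median. Of 9 tested in monocytes and macrophages 4 were higher and 3 lower in cycling cells, with a median log2 fold of 0.03 (27.4% of all genes called in either direction), beside 5 higher of 9 in T cells (median 0.66, 40.4% of all genes). Those higher in monocytes and macrophages were the DNA damage variant H2afx, which also gives a stem-loop mRNA in S phase (2.48 ± 0.15), the centromere variant Cenpa, made mainly in G2 (2.10 ± 0.18), H2afz (1.22 ± 0.10) and H2afv (1.61 ± 0.11). The H3.3 genes H3f3a and H3f3b were lower there, with log2 folds of -0.29 ± 0.09 and -0.46 ± 0.09. In dendritic cells and in melanoma-like cells 5 of the 9 were higher and 1 lower (18.2% and 9.93% of all genes).

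Of the genes that make and process histone cluster mRNA, 12 of 19 tested were higher in cycling T cells (median 0.54, beside 40.4% of all genes called in either direction), 9 of 19 in monocytes and macrophages (median 0.46, beside 27.4%), 6 of 17 in dendritic cells (beside 18.2%) and 5 of 15 in melanoma-like cells (beside 9.93%). None of those tested was called lower in these lineages. Slbp, the stem loop binding protein, rose by 0.64 ± 0.09 in T cells and 1.01 ± 0.13 in dendritic cells. The coactivator gene Npat rose by 0.48 ± 0.16 in T cells and 0.59 ± 0.19 in monocytes and macrophages, and cyclin E1 (Ccne1), which drives NPAT through CDK2, by 1.56 ± 0.17 and 2.39 ± 0.22. Of the histone chaperones, which carry the proteins to DNA, 17 of 24 were higher in T cells (median 0.74), 17 of 23 in monocytes and macrophages with 1 lower (Daxx, -0.84 ± 0.11), 15 of 22 in dendritic cells and 12 of 23 in melanoma-like cells. Asf1b and Chaf1a, which serve DNA replication, rose by 3.10 ± 0.14 and 2.07 ± 0.17 in T cells. Of the S phase list, 36 of 37 genes were higher in T cells and 36 of 38 in monocytes and macrophages (32 of 32 in dendritic and 27 of 29 in melanoma-like cells), and of the G2M list 45 of 46 and 49 of 49 (42 of 42 and 42 of 43). The G2M list holds Mki67 and Top2a, which define the split, and how far the counts of the other genes follow from it was not tested.

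Within cycling cells, the question was whether the histone cluster genes follow the S phase list. For each cycling cell the share of S list UMIs among its S and G2M list UMIs was taken, leaving out cells with none. Cells above the median share of their sample and lineage are called S-high and the rest S-low. In T cells 12 of the 18 genes tested were lower in S-high cells and none higher (background 5.02% of all genes), with a median log2 fold of -0.66 beside -0.00 over all genes. The S list, which the split itself uses, went the other way, with 26 of 34 higher (median 0.79), and of the G2M list, also used, 42 of 45 were lower. Of the replication-independent histone genes 6 of 9 were lower and none higher (median -0.23). The histone chaperones had 9 of 22 higher and 2 lower (median 0.30), and the genes that make and process histone mRNA 3 of 15 higher and none lower (median 0.27). Hist1h4d stood at 144, 231 and 226 CPM with αPD-1 alone and 299.5, 277 and 248 with αPD-1 + corin in S-high T cells. In S-low T cells it stood at 247, 356 and 326 CPM with αPD-1 alone and 673, 467 and 464 with αPD-1 + corin. S-low was the higher value in 6 of 6 samples, a log2 fold of -0.79 ± 0.09 (adjusted p = 1.09e-06). Hist1h3c, at 12.5 to 21.95 CPM in S-high and 30.3 to 60.4 CPM in S-low cells, had the lowest fold, -1.06 ± 0.21, and Hist1h1e fell by a log2 fold of 0.61 ± 0.09. The proliferation marker Mki67 moved with this result: 359 to 471 CPM in S-high and 589 to 871 CPM in S-low T cells, and its part in the result was not tested. Only 2 of these genes passed with cycling called from 4 UMIs, 7 without the sample block, and none when cycling was called after thinning every cell to 1000 UMIs, where 12 were tested and 5 had an unadjusted p under 0.05. DESeq2 called 8.

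In monocytes and macrophages the split gave another picture. Hist1h1a stood at 55.6, 84.7 and 54.4 CPM with αPD-1 alone and 97.04, 129 and 53.98 with αPD-1 + corin in S-high cells. In S-low cells it stood at 33.1, 37.7 and 67.1 CPM with αPD-1 alone and 32.9, 21.6 and 50.1 with αPD-1 + corin. S-high was higher in 5 of 6 samples, with αPD-1 replicate 3 the other way, and the log2 fold was 1.09 ± 0.24 (adjusted p = 0.00807). Hist1h1b also passed, at 0.77 ± 0.20 (adjusted p = 0.0324, higher in 5 of 6 samples, with αPD-1 + corin replicate 3 the other way), so 2 of 14 genes were called, both linker genes, against 3.57% of all genes. The median log2 fold of the 14 was 0.07. Without αPD-1 replicate 2 or αPD-1 + corin replicate 1 none was called, without αPD-1 replicate 1 or αPD-1 + corin replicate 2 only 1 was, and DESeq2 called 0 with 4 at an unadjusted p under 0.05. Whether T cells and macrophages differ in this split was not tested.

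Corin acts on histone-modifying enzymes, so the level of the histone genes themselves was compared between the arms, in each lineage and state apart. In cycling monocytes and macrophages the summed level was 1406, 1899 and 2322 CPM with αPD-1 alone and 2418, 2412 and 1717 with αPD-1 + corin. The arms overlap. None of 21 genes tested passed in edgeR, against 0.285% of all genes, with 4 at an unadjusted p under 0.05, all higher with corin, beside 897 of all 8058 genes, and DESeq2 called 0. The median log2 fold was 0.18. Without αPD-1 + corin replicate 3, the lowest of its arm, 1 gene passed.

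In other monocytes and macrophages the summed level was 349, 364 and 308 CPM with αPD-1 alone and 252, 296 and 304 with αPD-1 + corin. All 3 corin values lie below all 3 αPD-1 values. The G2M list stood at 1053, 1057 and 953 CPM with αPD-1 alone and 809, 847 and 1012 with αPD-1 + corin, with a median log2 fold of -0.18 and none of its genes called, and its part in the histone level was not tested. With other cells limited to those with no Mki67 or Top2a UMI, chosen after seeing the data, the median of the histone cluster genes was -0.29 and none was called, with 2 at an unadjusted p under 0.05. In the comparison as reported, the median log2 fold over 26 genes tested was -0.27 beside 0.01 over all genes, and edgeR called 0 of them (0.275% of all genes), with 3 at an unadjusted p under 0.05 beside 2171 of all 11279 genes, while DESeq2 called 1. Hist1h1b stood at 20.5, 19.4 and 13.98 CPM with αPD-1 alone and 7.86, 9.88 and 11.2 with αPD-1 + corin, with no overlap and a log2 fold of -0.78 ± 0.20 (adjusted p = 0.129). Hist1h1e stood at 54.8, 64.8 and 57.3 CPM with αPD-1 alone and 35.6, 45.4 and 43.5 with αPD-1 + corin, again with no overlap, at a fold of -0.36 ± 0.14 (adjusted p = 0.210). Hist3h2ba, an H2B gene on chromosome 11, went the other way: 1.27, 1.78 and 1.37 CPM with αPD-1 alone and 5.43, 7.41 and 3.99 with αPD-1 + corin. Its corin values all lie above the αPD-1 values, with a fold of 2.06 ± 0.36 and an adjusted p of 0.0559, just above the threshold, and it was chosen for mention after its values were seen. Without αPD-1 + corin replicate 3, edgeR called 4 genes, 2 in each direction, and 22.3% of all genes.

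The make-up of this lineage differed between the arms. In the αPD-1 arm 41.2% of its cells lay in cluster 0 and 26.1% in cluster 9, and in the αPD-1 + corin arm 23.6% lay in cluster 6, 22.5% in cluster 0, 22.5% in cluster 4 and 16.2% in cluster 10. Cluster 6 held 41 αPD-1 cells and 1764 αPD-1 + corin cells. T cells lay mostly in cluster 3 (44.2%), 8 (26.3%) and 7 (16.8%) with αPD-1, and in 7 (45.2%), 3 (27.6%) and 8 (25.8%) with αPD-1 + corin. Cluster 18 held 412 αPD-1 T cells (12.6%) and 38 αPD-1 + corin T cells (1.47%). Dendritic cells lay mostly in cluster 1 (78.9% and 82.2%). The part of the cluster make-up in the differences between the arms was not tested, apart from the largest macrophage cluster on its own, given with the interaction.

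A treatment effect that differs between cycling and other cells was tested with an interaction term. In monocytes and macrophages 1 of 36 histone cluster genes passed, Hist1h1b, against 0.617% of all genes, with 5 at an unadjusted p under 0.05 beside 1059 of all 10867 genes, and DESeq2 called 1. Hist1h1b stood at 191, 295 and 264 CPM with αPD-1 alone and 358, 458 and 213 with αPD-1 + corin in cycling cells. With corin it was thus lower in other cells and, in replicates 1 and 2 of that arm, higher in cycling cells, while replicate 3 lay within the αPD-1 range. The interaction was 1.32 ± 0.28 on the log2 scale (adjusted p = 0.0357). The call was lost in 9 of 16 alternatives, over which the adjusted p ran from 2.53e-06 to 0.580: in the largest cluster alone, chosen after seeing the data, it was 0.78 (adjusted p = 0.580), with cells of over 4000 genes kept 1.02 (0.117), and leaving out 1 sample gave 1.02 to 1.64 (adjusted p 0.000428 to 0.300), past the threshold without αPD-1 replicate 3 or αPD-1 + corin replicate 3 and not without any of the other samples. With other cells limited to those with no Mki67 or Top2a UMI, also chosen after seeing the data, it was 1.70 (0.0201).

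In cycling T cells the arms overlap in the summed level given above, and none of 29 genes tested passed in edgeR (0.626% of all genes). There were 5 at an unadjusted p under 0.05, 4 of them higher with corin, beside 1130 of all 8782 genes, and DESeq2 called 0. Hist1h4d was the nearest, with all 3 corin values above all 3 αPD-1 values and a log2 fold of 0.70 ± 0.17 (adjusted p = 0.0974). Without αPD-1 replicate 2, 1 gene passed.

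In other T cells 3 of 23 genes tested were higher with corin and none lower, beside 531 higher and 806 lower of all 10948 genes (12.2% called in either direction). Whether the count exceeds this background was not tested. Hist1h4d, at the values given above, had a log2 fold of 1.00 ± 0.17 (adjusted p = 0.00425), with all 3 corin values above the αPD-1 values. Hist1h2ab stood at 2.76, 3.55 and 2.86 CPM with αPD-1 alone and 7.10, 7.87 and 8.40 with αPD-1 + corin. The arms do not overlap, the fold was 1.47 ± 0.33 (adjusted p = 0.0161), and the sums behind it were small: 8, 12, 8, 4, 10 and 39 UMIs. The pigment gene Mlana stood at 5.74 to 13.6 CPM in T cells, and the share of free RNA in such counts was not tested. Hist1h2ae stood at 11.4, 12.7 and 12.9 CPM with αPD-1 alone and 31.96, 19.7 and 19.2 with αPD-1 + corin. It too was higher in every corin sample, by 0.89 ± 0.22 (adjusted p = 0.0232). In all, 7 of the 23 had an unadjusted p under 0.05, all higher, beside 3047 of all genes, the median log2 fold was 0.21 beside -0.00 over all genes, and DESeq2 called 1.

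**Figure D3:**
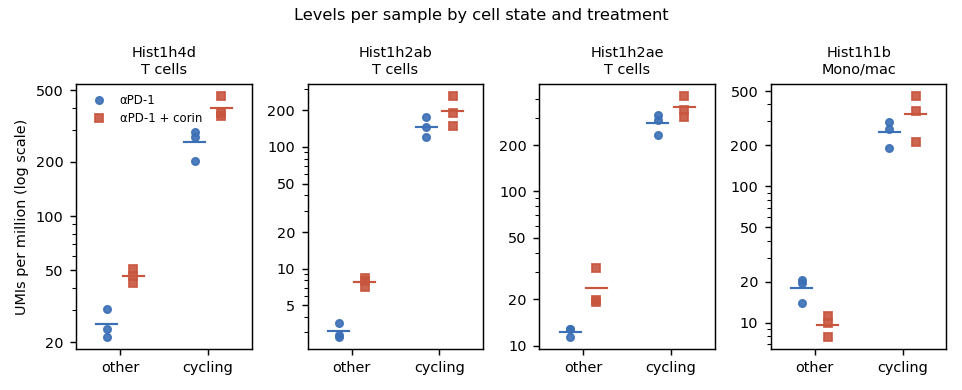
CPM (log axis) of Hist1h4d, Hist1h2ab and Hist1h2ae in T cells and of Hist1h1b in monocytes and macrophages, per sample, in other and cycling cells of each arm. In other T cells all 3 corin values lie above all 3 αPD-1 values for Hist1h4d, Hist1h2ab and Hist1h2ae, and in other monocytes and macrophages all 3 lie below for Hist1h1b.

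Residual cycling RNA moved with these T cell results. The G2M list had a median log2 fold of 0.25, with 3 of 39 genes tested higher with corin. The S list had a median of 0.26, with 1 of 35 higher, and no gene of either list was lower. The part of these lists in the histone level was not tested. Of other T cells, 11.6, 11.7 and 11.6% with αPD-1 alone and 13.2, 15.2 and 18.6% with αPD-1 + corin held 1 Mki67 or Top2a UMI, at median depths of 2095, 2667.5 and 2242.5 UMIs and of 1765.5, 2684 and 2644 UMIs. With those cells left out, an alternative chosen after seeing the data, Hist1h4d kept a log2 fold of 0.93 (adjusted p = 0.00754) and Hist1h2ae 1.06 (0.0402), and Hist1h2ab had 1.36 (0.0551). In T cells with a Cd3 UMI, also chosen after seeing the data, the folds were 0.87 (0.0185), 0.87 (0.0461) and 1.26 (0.0454) in the same order. Over the alternatives that gave a value, the adjusted p ran from 6.42e-06 to 0.0749 for Hist1h4d and 0.000571 to 0.217 for Hist1h2ae. For Hist1h2ab it ran from 0.000880 to 0.131, with no value where cells of over 4000 genes were kept. The number called was 1 without αPD-1 replicate 1, αPD-1 replicate 3 or αPD-1 + corin replicate 3 in turn. It was 5 with cycling called from 4 UMIs and 12 with cycling called after thinning. Both settings move weakly cycling cells into the other class. The share of all genes called in them is not given here, so these counts cannot be set against a background. With cells of over 4000 genes kept it was 0, where 8 were tested and 2 had an unadjusted p under 0.05. The folds there were 1.04 for Hist1h4d (adjusted p = 0.0749) and 0.66 for Hist1h2ae (0.217). Hist1h4d then stood at 11.6, 26.2 and 37.9 CPM with αPD-1 alone and 29.1, 59.4 and 43.0 with αPD-1 + corin, so the arms overlap. The class was also smaller, with 274, 262, 245, 48, 125 and 713 other T cells against 1000, 944, 862, 258, 349 and 1315. Which change moved the count was not tested. The interaction term called 0 of 33 genes in T cells (0.402% of all genes), with 5 at an unadjusted p under 0.05, all negative, beside 843 of all 9960 genes, and DESeq2 also called 0. With cycling called after thinning it called 6 of 28 genes, all negative, and the share of all genes called there is not given here. Whether a treatment effect that differs between cycling and other T cells is called thus depends on how cycling is called.

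In cycling dendritic cells the summed level was 1271, 1605 and 1298 CPM with αPD-1 alone and 2053, 2024 and 1983 with αPD-1 + corin. The arms do not overlap, and the sums came from 32, 25, 46, 77, 41 and 72 cells. None of 11 genes tested passed in edgeR (0.177% of all genes), although 7 had an unadjusted p under 0.05, all higher with corin, beside 411 of all 5091 genes, and the median log2 fold was 0.63 beside -0.01 over all genes. DESeq2 also called 0. The phase lists moved too, with none of their genes called: the S list had a median log2 fold of -0.38, at 1976, 3138 and 2686 CPM with αPD-1 alone and 1726, 2248 and 1872 with αPD-1 + corin, and the G2M list 0.25. The part of phase in the histone level was not tested. Hist1h2ak stood at 16.9, 17.03 and 29.4 CPM with αPD-1 alone and 67.3, 76.9 and 73.97 with αPD-1 + corin, with no overlap and a fold of 1.75 ± 0.32 (adjusted p = 0.0506). Hist1h1b stood at 203, 247 and 206 CPM with αPD-1 alone and 373, 400.3 and 281 with αPD-1 + corin, again with no overlap and a fold of 0.73 ± 0.19 (adjusted p = 0.272). With RLE size factors 1 gene passed, and without αPD-1 + corin replicate 3, 2 did. In other dendritic cells edgeR and DESeq2 called 0 of 14 (0.737% of all genes), 1 had an unadjusted p under 0.05 beside 1236 of all 9635 genes, and 1 passed without αPD-1 + corin replicate 3.

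In melanoma-like cells no histone cluster gene passed in either state. Of 11 tested in cycling cells 2 had an unadjusted p under 0.05, beside 416 of all 7247 genes (0.0276% called), Hist1h4d at 1.12 ± 0.31 and Hist1h2ab at 1.04 ± 0.37, both with an adjusted p of 0.863 in edgeR. Hist1h4d stood at 133, 61.4 and 177 CPM with αPD-1 alone and 183, 300.4 and 353 with αPD-1 + corin. The arms do not overlap, though the αPD-1 sums came from 41, 24 and 50 cells only. Of 8 tested in other cells none had an unadjusted p under 0.05, beside 617 of all 8107 genes, where 0% of all genes were called, and DESeq2 called 0 in both states.

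The share of cells called cycling was compared between the arms too. In T cells it was 13.04, 15.8 and 13.3% with αPD-1 alone and 16.5, 25.4 and 27.4% with αPD-1 + corin. Their 95% Wilson intervals, which cover counting error only, were 11.2 to 15.1, 13.8 to 18.04, 11.3 to 15.5, 12.8 to 21.1, 21.7 to 29.6 and 25.4 to 29.5%. All 3 corin values are higher, by 9.07 points on average, with a two-sided exact permutation p of 0.1, the smallest that 3 against 3 samples allow (0.4 after Benjamini-Hochberg adjustment over 4 lineages). After each cell was thinned to 1000 UMIs the mean shares were 4.77% and 7.05%, against 14.04% and 23.1% before, and the difference was 2.28 points, with an exact p of 0.1, and 79 αPD-1 and 43 αPD-1 + corin T cells under that depth were left out. In monocytes and macrophages the shares were 9.94, 15.1 and 4.39% and 5.32, 7.67 and 10.5%, a difference of -1.98 points (exact p = 0.7) that became 0.656 without αPD-1 replicate 2, and -0.463 after thinning, with 23 and 44 cells left out. Dendritic cells differed by -0.826 points (exact p = 0.8; 0.209 after thinning, 2 and 12 cells left out) and melanoma-like cells by -2.33 points (exact p = 0.5; -2.06 after thinning, 15 and 16 left out).

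Position is a feature the symbols do not fully give. In GRCm39, 54 of the 67 genes lie on chromosome 13 between 21899933 and 24118834, 10 on chromosome 3 between 96127181 and 96177448, 2 on chromosome 11 and 1 on chromosome 6. The genes with the highest levels per kb in cycling T cells are scattered through the chromosome 13 cluster: Hist1h1b (ENSMUSG00000058773) lies at chr13:21964053-21964795 on the minus strand, Hist1h2ae (ENSMUSG00000069272) at chr13:23754691-23755394 on the minus strand, Hist1h4d (ENSMUSG00000061482) at chr13:23765581-23766718 on the plus strand, Hist1h1e (ENSMUSG00000051627) at chr13:23804612-23806541 on the minus strand and Hist1h2ab (ENSMUSG00000061615) at chr13:23935109-23935581 on the plus strand. Close neighbors could differ widely: Hist1h2ae and the H2B gene Hist1h2bg start 176 bases apart on opposite strands, and in cycling T cells the first stood at 233 to 413 CPM and the second at 3.59 to 8.75 CPM. Of 11 such H2A and H2B pairs with starts within 500 bases, Hist1h2ag and Hist1h2bj had the H2B gene higher, at 0 to 5.06 CPM and 37.96 to 56.4 CPM, as did Hist1h2ad with Hist1h2bf and Hist1h2ah with Hist1h2bk, at means of 0.852 against 12.6 and 0.778 against 3.05 CPM per kb. In cycling T cells Hist1h2ad and Hist1h2bf had only 2 and 31 UMIs, and Hist1h2ah and Hist1h2bk 4 and 11. Hist1h2aa and Hist1h2ba had no UMI, and in the other pairs the H2A gene had the higher mean. For Hist1h2ao and Hist1h2bq this rests on 1 UMI against 0.

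**Figure D4:**
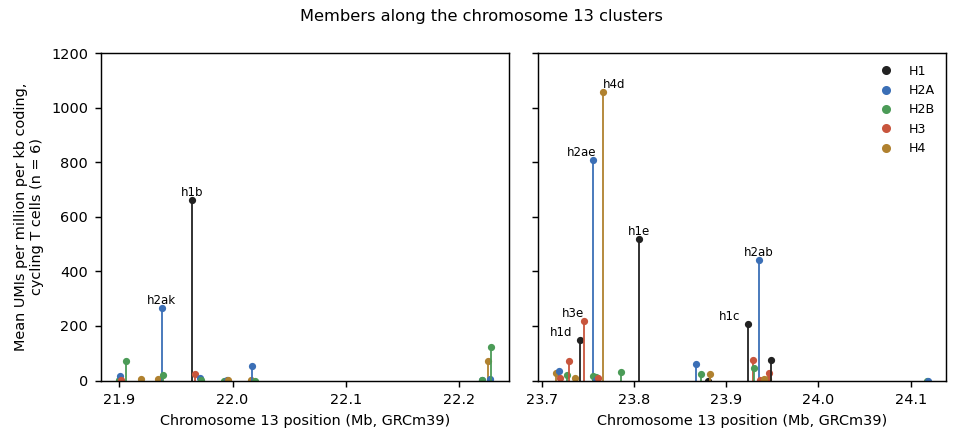
Mean CPM per kb of coding sequence over the 6 cycling T cell sums for the histone cluster genes of chromosome 13, placed at their GRCm39 position and colored by histone family. Hist1h4d (1059) and Hist1h2ae (809) are highest on this scale, with many near-silent genes between them and Hist1h1b (662). Not scaled to length, Hist1h1b was the highest.

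Sequence likeness limits how the genes can be told apart. Of the 90-base windows of each gene's transcripts, 17 genes shared under 10% with another gene (median 954 UMIs in kept cells), 23 shared 10 to under 50% (median 374), and 27 shared 50% or more (median 38). Reads that fit several genes are not counted, so low levels in the last group are uncertain. Hist1h1b shared 0% and Hist1h4d 0.858%, against 53.6% for Hist1h2ab and 31.9% for Hist1h2ae. These windows span whole annotated transcripts, long 3′ ends included, while the libraries were made with a 5′ kit. Sharing within the sequenced part alone was not tested. Hist1h1e overlaps the long annotated transcript of Hist1h2be on the same strand, which can remove reads of both.

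At the 3′ end the genes share a stem loop. The 16-base element was found within 150 bases after the coding end of 65 of the 67 genes, and within an annotated transcript of 46 of them, against 71 of all 21316 protein-coding genes (0.333%), these 46 included. The sequences of 6 of the named genes, with H1, H2A, H3 and H4 among them, are shown from GRCm39, annotated by GENCODE vM39, to let the shared element be seen, with the stem loop in capitals and 5 bases on either side. They are Hist1h1b (chr13:21964002-21964027, minus strand), Hist1h1e (chr13:23805760-23805785, minus), Hist1h2ae (chr13:23754837-23754862, minus), Hist2h2ac (chr3:96127729-96127754, minus), Hist1h3e (chr13:23746072-23746097, minus) and Hist1h4d (chr13:23765928-23765953, plus).
Hist1h1b: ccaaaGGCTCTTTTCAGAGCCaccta
Hist1h1e: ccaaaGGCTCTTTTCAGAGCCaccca
Hist1h2ae: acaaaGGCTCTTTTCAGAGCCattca
Hist2h2ac: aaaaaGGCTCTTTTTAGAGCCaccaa
Hist1h3e: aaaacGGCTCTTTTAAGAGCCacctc
Hist1h4d: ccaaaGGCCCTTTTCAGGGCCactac
Hist1h4d is annotated to run 770 bases past its stem loop and Hist1h1e 1153, while Hist1h1b is annotated to end before it. Genes annotated 100 or more bases past the stem loop numbered 28, with a median of 641.5 UMIs in kept cells, and the 37 others with a stem loop had a median of 104. This is a description of the annotation, and which RNA ends were captured was not tested.

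The promoters were searched for letters common in histone genes, in the 250 bases before and 50 after each start, on both strands, for the 61 genes with a RefSeq entry (GRCm38.p6). TATAAA, the TATA box, was in 35 of 61 (57.4%), against 13.6% of all 32851 promoters. CCAAT was in 52 of 61 (85.2%), against 37.4%, and in 3 of the 12 H4 promoters. ATTTGCAT, the octamer that Oct-1 binds in H2B promoters, was in 13 (21.3%), against 1.74%: 7 of 17 H2A and 6 of 16 H2B promoters, and none of the H1, H3 and H4 promoters. The promoters of Hist1h1b (chr13:21780576-21780875, minus strand), Hist1h2ae (chr13:23571171-23571470, minus) and Hist1h4d (chr13:23581318-23581617, plus) are shown because these genes rose together in cycling cells, with matches to any of the letters, on either strand, in capitals. The Hist1h2ae window lies over that of Hist1h2bg on the other strand, so its octamer serves both windows. A match is a run of letters, not a tested site.
Hist1h1b: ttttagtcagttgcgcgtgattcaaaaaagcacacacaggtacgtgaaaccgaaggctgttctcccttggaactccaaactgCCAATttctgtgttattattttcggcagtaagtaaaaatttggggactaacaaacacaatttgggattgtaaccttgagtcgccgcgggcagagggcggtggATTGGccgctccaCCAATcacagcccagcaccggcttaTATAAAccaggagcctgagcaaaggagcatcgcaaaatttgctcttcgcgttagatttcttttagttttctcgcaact
Hist1h2ae: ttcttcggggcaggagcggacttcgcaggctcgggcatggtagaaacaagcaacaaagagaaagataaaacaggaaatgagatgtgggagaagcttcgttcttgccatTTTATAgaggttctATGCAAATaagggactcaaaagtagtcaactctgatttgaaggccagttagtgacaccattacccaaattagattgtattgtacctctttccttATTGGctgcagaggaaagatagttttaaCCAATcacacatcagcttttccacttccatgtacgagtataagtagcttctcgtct
Hist1h4d: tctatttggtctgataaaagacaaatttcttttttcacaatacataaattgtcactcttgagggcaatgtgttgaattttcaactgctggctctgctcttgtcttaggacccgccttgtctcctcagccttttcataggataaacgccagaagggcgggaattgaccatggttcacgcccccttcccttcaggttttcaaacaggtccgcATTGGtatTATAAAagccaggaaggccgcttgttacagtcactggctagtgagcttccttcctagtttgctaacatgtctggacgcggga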

How the data were processed

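The deposited matrices hold UMI counts per gene and barcode that the authors made with Cell Ranger 8.0 on GRCm39, as whole numbers without normalization. The authors used Seurat 5.0.11 downstream. Here cells were filtered in Python 3.11.15, doublets scored with Scrublet (scanpy 1.11.5) were removed by rank at 0.4% per 1000 barcodes, since its automatic threshold called 0, and cells were clustered with Seurat 5.3.0 and sctransform 0.4.2 (2881 variable genes, 20 components, resolution 0.8, 23 clusters). Summed counts were tested in R 4.3.3 with edgeR 4.0.16 (TMM, filterByExpr, quasi-likelihood, Benjamini-Hochberg over all genes tested; threshold 0.05), with samples blocked where states of the same sample were compared. DESeq2 1.42.0, other size factors, no filter, other cell filters and cycling rules, leaving out each sample and a replicate block were alternatives, and 3 more were added after seeing the data. Genes named with values were the 12 highest in cycling and in other monocytes and macrophages and those past the threshold between arms or in the interaction; others named were chosen after their values were seen. The members and lists were chosen with earlier results of these data known. Folds carry standard errors.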

Additional observations from a re-analysis of the deposited data

Results flagged for a closer look

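In monocytes and macrophages the effect of corin on Hist1h1b differed between cycling and other cells, by an interaction of 1.32 ± 0.28 (SE) on the log2 scale (edgeR quasi-likelihood test, adjusted p = 0.0357, 3 samples per arm). In other cells all 3 αPD-1 + corin samples lay below the αPD-1 samples, and in cycling cells replicates 1 and 2 of that arm lay above them. The call was lost in 9 of 16 alternatives, over which the adjusted p ran from 2.53e-06 to 0.580, and in 4 of the 6 fits that left out 1 sample. The cause of the difference was not tested.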

How the results depend on the processing

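Between cycling and other cells, more of the 67 genes were called higher than lower under every alternative run. The call count was 16 to 32 in monocytes and macrophages (24 as reported), 19 to 36 in T cells, 13 to 24 in dendritic cells and 7 to 31 in melanoma-like cells. Over 87 results for single genes, 1304 of 1407 values under alternatives kept direction and side of the threshold, 103 no longer passed and 0 reversed. Settings that gave no value for a gene are not counted. Those no longer past the threshold were 9 of 16 for the interaction, 14 of 30 and 40 of 188 for the S split in macrophages and T cells and 12 of 50 for corin in other T cells. For cycling against other cells they were 9 of 395 in monocytes and macrophages, 9 of 380 in T cells, 0 of 208 in dendritic cells and 10 of 140 in melanoma-like cells. The causes of the shifts below were not tested. The counts below are given without the share of all genes called in each setting.

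With no filter on low counts, calls were 36 in T cells, 24 in dendritic cells and 18 in melanoma-like cells for cycling against other cells. For corin in cycling cells they were 2 in monocytes and macrophages, 1 in T cells, 3 in dendritic cells and 2 in melanoma-like cells. For corin in other cells they were 2 in monocytes and macrophages and 1 in dendritic cells, and for the S split in monocytes and macrophages 4. With cells of over 4000 genes kept they were 31 for melanoma-like cells, 0 for corin in other T cells and 0 for the interaction in monocytes and macrophages. The classes changed in size in that setting, with fewer other T cells and more melanoma-like cells of both states in every sample.

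DESeq2 gave 1 for corin in other monocytes and macrophages, 1 in other T cells and 0 for the macrophage S split. RLE size factors gave 1 for corin in cycling dendritic cells. Without doublet removal the macrophage interaction and S split gave 0 each, with Hist1h1b at an interaction of 1.35 (adjusted p = 0.0515; 2.53e-06 to 0.580 over all alternatives) against 1.32 as reported. Cycling called from 4 UMIs gave 5 for corin in other T cells, 0 for the macrophage interaction and 2 for the T cell S split. Cycling called after thinning gave 12, 0 and 0 for these, 0 for the macrophage S split and 6 for the T cell interaction. It gave no value for corin in cycling dendritic cells, where too few cells remained. Without the sample block the S splits gave 0 and 7. With a replicate block, which the numbers do not support as pairs (correlations of -0.21 to 0.09), corin gave 2 in other T cells and 0 in the other lineages and states. Alternatives chosen after seeing the data were the largest macrophage cluster (0 for the interaction and 0 for the S split), other cells without any cycling UMI and T cells with a Cd3 UMI.

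Leaving out 1 sample in turn gave, for corin, 0 to 1 in cycling and 0 to 4 in other monocytes and macrophages, 0 to 1 in cycling and 1 to 3 in other T cells, and 0 to 2 in cycling and 0 to 1 in other dendritic cells. It gave 0 to 1 for the macrophage interaction and 0 to 2 for the macrophage S split. The corin difference in cycling share ran from -4.68 to 0.656 points in monocytes and macrophages, -2.96 to 0.383 in dendritic cells and -5.69 to 0.201 in melanoma-like cells. In dendritic cells it was 0.985 with cycling from 4 UMIs and 0.209 after thinning, and it reversed in 5 of 10 settings. With cells of over 4000 genes kept it was -5.55 there and -13.9 in melanoma-like cells.

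The filter on low counts kept 39 of the 67 genes from the tests for cycling. For those that share windows, low counts from depth and from reads lost to shared sequence cannot be told apart. Among the 39, Hist2h2be and Hist1h1t share 0% and had 329 and 30 UMIs in kept cells. Dendritic cycling sums held as few as 234864 UMIs. A p that missed the threshold does not show that levels were equal.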
